A study of Solanum lycopersicum with 9 samples.

Results

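Transcripts of 6 tomato genes listed as abscisic acid receptors of the PYR/PYL/RCAR family were compared between leaves of control, partly defoliated and partly shaded plants. The genes were taken from the count table by matching their identifiers before the version suffix. All 6 listed genes were among the 23195 genes of the table, and all 6 were among the 20480 genes that passed the filter on low counts. The table does not pair identifiers with names or products, and 0 of its 23195 identifiers matched the reference gene table, so the family assignment rests on the list and could not be checked against an annotation. For the same reason no receptor subclass is given for any member.

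Abscisic acid is the hormone through which plants limit water loss and adjust growth and metabolism under drought and other stresses. Its PYR/PYL/RCAR receptors are small soluble proteins that close over the hormone and then bind and inhibit clade A protein phosphatases of type 2C. This inhibition frees SnRK2 kinases, which phosphorylate ion channels and transcription factors. In leaves the pathway is best known for closing the stomata and for inducing stress-response genes.

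The plants were wild-type tomato (Solanum lycopersicum) of the cultivar M82, grown in pots in a greenhouse, and each of the 3 groups held 3 biological replicates per the series' design text. Control plants kept all their leaves uncovered. In defoliated plants every leaf but the sampled one was cut off at the stem, and in shaded plants foil covered every leaf but the youngest fully expanded one. The treatments were made in the reproductive stage, soon after the first flowers had opened, and RNA came from the leaf left in place or in the light. A number, 48, stands without a unit in the labels of the 6 treated libraries and is missing from those of the controls, so what it marks and the treatments cannot be told apart. The cell type is labelled as leaf mesophyll, but RNA was extracted from leaves, and the label could not be checked without annotated marker genes.

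Libraries held between 17617138 and 31012772 counts. Shading replicate 3 was the shallowest and had 1657 genes at 0, against 334 to 711 in the others. Receptor calls and signs of log2 fold changes that change without it are therefore given both ways. The members had between 6 counts, for Solyc10g076410.1 in that library, and 1548 counts, for Solyc08g082180.3 in control replicate 1. Levels are given as CPM, counts scaled to the library size, after TMM scaling, which also corrects for library composition. No transcript lengths were used, so levels can be compared between groups for 1 gene but not between genes.

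No receptor was called higher in either treatment by edgeR, DESeq2 or limma-voom. Of all tested genes, 18.9% were called higher after defoliation and 16% under shading at an edgeR adjusted p below 0.05. Of the 6 receptors, 1 was called lower after defoliation and 2 under shading, against 15.4% and 14.2% of all tested genes. Solyc06g061180.1 fell to 0.578 of its control level after defoliation and to 0.652 under shading. Solyc08g082180.3 fell to 0.544 of its control level under shading, and was at 0.666 after defoliation without being called. With 1 library left out, the number called lower under shading ranged from 0 to 2. Solyc03g007310.3 had group means between 20.4 and 21.8 CPM and did not pass in any comparison, nor did the remaining 3 members. The same 3 control libraries serve both comparisons with control.

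**Figure D1:**
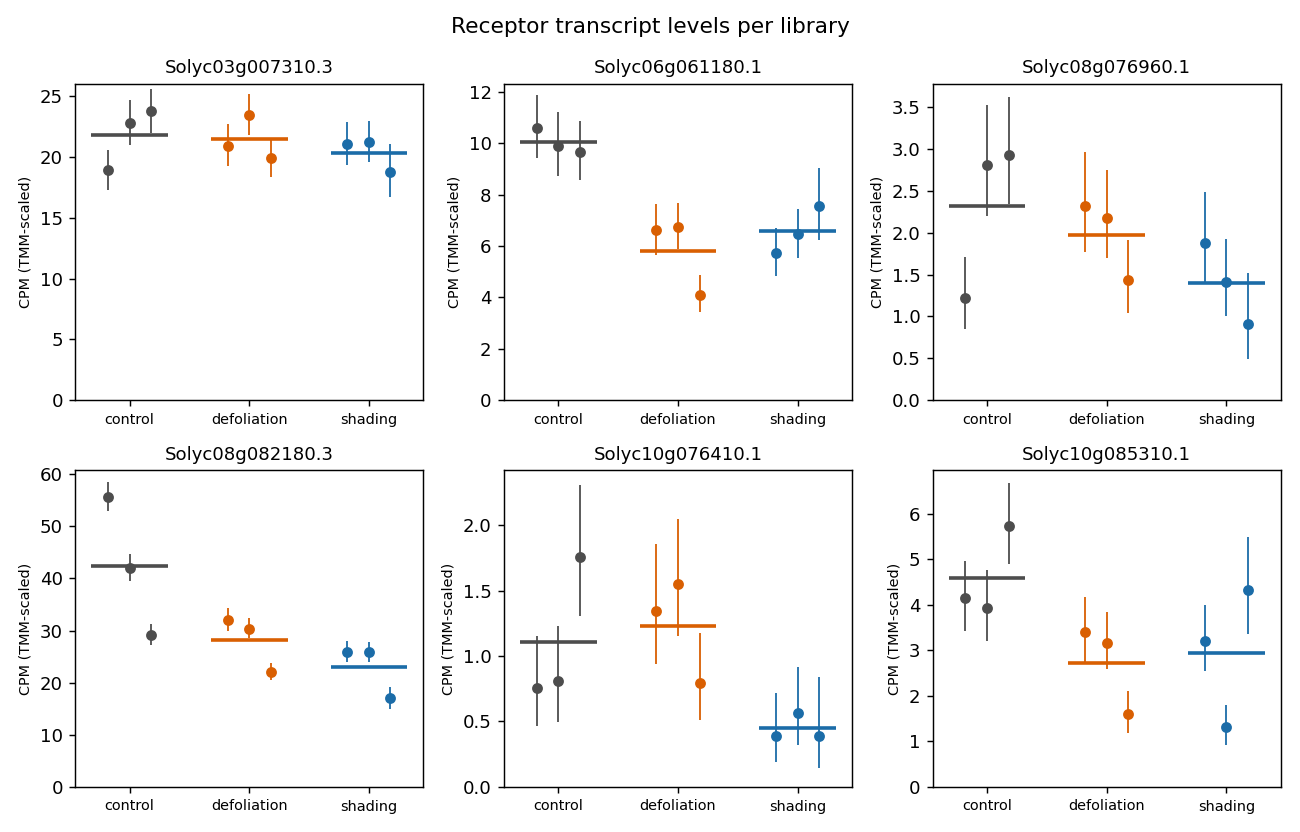
TMM-scaled CPM of the 6 receptors, 1 panel per gene, with 1 point per library in the order of replicates 1 to 3; vertical lines are exact 95% Poisson intervals (counting error only) and horizontal lines are group means (n = 3). For Solyc06g061180.1 the 3 control libraries lie at 9.65 to 10.6 CPM and all 6 treated libraries at 4.11 to 7.55 CPM, while the groups of Solyc03g007310.3 overlap.

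Solyc06g061180.1 had the clearest separation of the 6. The control libraries had 10.6, 9.91 and 9.65 CPM of it, the defoliation libraries 6.61, 6.73 and 4.11 CPM, and the shading libraries 5.71, 6.45 and 7.55 CPM. All 6 treated libraries lay below all 3 control libraries, with defoliation replicate 3 the lowest. The control libraries differed from each other by no more than counting error allows, with a coefficient of variation of 4.96% against 6.01% for counting alone. After defoliation the spread was 25.5% against 7.7%.

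Mean CPM of Solyc06g061180.1 was 10.1 ± 0.50 for control, 5.82 ± 1.48 for defoliation and 6.57 ± 0.93 for shading (SD, n = 3). The fall after defoliation had a log2 fold change of -0.79 ± 0.21 (SE, edgeR quasi-likelihood test, Benjamini-Hochberg adjusted p = 0.0144, 95% interval -1.25 to -0.33). It passed the threshold of 0.05 under every alternative tried, with edgeR adjusted p at most 0.0455 with any 1 library left out. Because these are bulk samples, fewer cells of a type that expresses a gene and less RNA of it per cell cannot be told apart.

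Under shading the fall of Solyc06g061180.1 was close to the threshold, with a log2 fold change of -0.62 ± 0.21 (SE, edgeR adjusted p = 0.0452, 95% interval -1.08 to -0.16). DESeq2 and limma-voom also called it, at adjusted p = 0.0331 and 0.0378. The call was lost with RLE scaling (-0.60, edgeR adjusted p = 0.0519) and with upper-quartile scaling (-0.62, edgeR adjusted p = 0.0531). It was also lost in 7 of the 9 fits that each left out 1 library, where the log2 fold change stayed between -0.72 and -0.52. Those 7 were the fits without control replicate 1 (-0.58), 2 (-0.60) or 3 (-0.65), without defoliation replicate 1 (-0.62) or 2 (-0.62), and without shading replicate 1 (-0.52) or 2 (-0.60). Without the shallow shading replicate 3 the gene was called, at -0.72 (edgeR adjusted p = 0.047).

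Solyc08g082180.3 was lower under shading, with defoliation in between. Control libraries had 55.7, 42.0 and 29.2 CPM of it, defoliation libraries 32.1, 30.4 and 22.1 CPM, and shading libraries 25.9, 25.8 and 17.0 CPM. All 3 shading libraries lay below all 3 control libraries, whereas control replicate 3 lay below defoliation replicates 1 and 2. The control libraries were far apart, with a coefficient of variation of 31.4% where counting alone gives 3%. In each group the CPM fell from replicate 1 to replicate 3.

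Mean CPM of Solyc08g082180.3 was 42.3 ± 13.3 for control, 28.2 ± 5.34 for defoliation and 22.9 ± 5.14 for shading (SD, n = 3). The fall under shading had a log2 fold change of -0.88 ± 0.25 (SE, edgeR adjusted p = 0.027, 95% interval -1.45 to -0.31). After defoliation the log2 fold change was -0.59 ± 0.25 and did not pass (SE, edgeR adjusted p = 0.0989, 95% interval -1.15 to -0.024). The direct comparison of shading with defoliation gave -0.29 ± 0.25 (SE, edgeR adjusted p = 0.591, 95% interval -0.86 to 0.27), so a difference between the treatments was not shown for this gene.

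The calls of Solyc08g082180.3 changed when single libraries were left out. Its shading call was lost without control replicate 1 (-0.63, edgeR adjusted p = 0.0937), without control replicate 2 (-0.86, edgeR adjusted p = 0.067) and without shading replicate 3 (-0.71, edgeR adjusted p = 0.0822). In the other direction, it passed after defoliation once control replicate 3, the lowest of the controls, was left out (-0.80, edgeR adjusted p = 0.0286). Without control replicate 1, the highest, the defoliation value was -0.34 (edgeR adjusted p = 0.336).

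**Figure D2:**
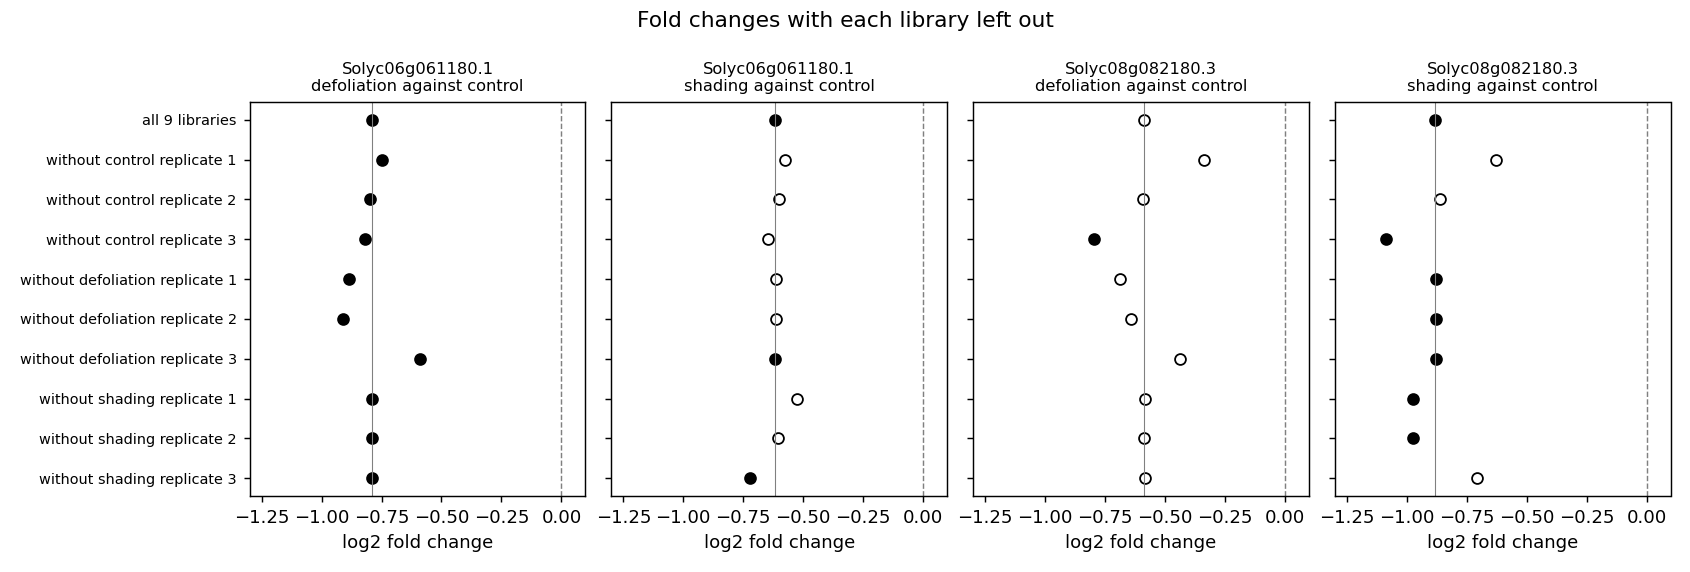
Log2 fold changes of Solyc06g061180.1 and Solyc08g082180.3 against control with all 9 libraries and with each library left out in turn; filled points have an edgeR adjusted p below 0.05, the dashed line is no change and the thin line the value with all libraries. Every value is below 0, and only the defoliation panel of Solyc06g061180.1 is filled throughout.

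Solyc03g007310.3 differed least between groups. It was measured at 18.9, 22.8 and 23.7 CPM in the controls, at 20.9, 23.5 and 19.9 CPM after defoliation and at 21.1, 21.2 and 18.8 CPM with shading. The groups overlapped throughout, and the spread over libraries was small, with a biological coefficient of variation of 0.134 that was higher than that of 12.8% of the tested genes.

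For Solyc03g007310.3 the log2 fold changes were -0.024 ± 0.13 after defoliation and -0.098 ± 0.13 under shading (SE, edgeR adjusted p = 0.901 and 0.596). The 95% intervals ran from -0.31 to 0.26 and from -0.38 to 0.19. The direct comparison gave -0.073 ± 0.13 (SE, edgeR adjusted p = 0.807, 95% interval -0.36 to 0.21). These are the narrowest intervals of the 6 members.

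Solyc10g076410.1 was the member with the fewest counts, 32 in all 3 shading libraries together against 93 in control and 111 in defoliation libraries. Its CPM was 0.756, 0.807 and 1.76 in the controls, 1.34, 1.55 and 0.796 after defoliation and 0.391, 0.564 and 0.387 with shading. All 3 shading libraries lay below the other 6. Counting error alone was 32.5% in the shading libraries, and the lowest value, in shading replicate 3, rests on 6 counts with a 95% Poisson interval of 0.142 to 0.843 CPM.

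The level of Solyc10g076410.1 under shading was 0.411 of control, a log2 fold change of -1.28 ± 0.47 that did not pass (SE, edgeR adjusted p = 0.061, 95% interval -2.32 to -0.25). Against defoliation it was -1.43 ± 0.46 (SE, edgeR adjusted p = 0.175, 95% interval -2.46 to -0.40), which also did not pass. DESeq2 gave adjusted p = 0.0578 and 0.104 for these comparisons. Without control replicate 3, the highest of the controls, the value against control was -0.78. After defoliation the log2 fold change was 0.15 ± 0.43 (SE, edgeR adjusted p = 0.816), the only positive one among the members in comparisons with control.

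Solyc10g085310.1 was lower in all 3 defoliation libraries than in any control library, but without passing the test. The controls had 4.14, 3.92 and 5.72 CPM of it, the defoliation libraries 3.40, 3.17 and 1.59 CPM, and the shading libraries 3.21, 1.30 and 4.33 CPM. The defoliation value was -0.76 ± 0.42 (SE, edgeR adjusted p = 0.185, 95% interval -1.69 to 0.17). The shading libraries overlapped the controls and spread widely, with a coefficient of variation of 51.8% against 13.2% for counting, and shading replicates 2 and 3 were the extremes. The log2 fold change under shading was -0.66 ± 0.42 (SE, edgeR adjusted p = 0.263), -0.29 without shading replicate 2 and -1.03 without shading replicate 3.

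Solyc08g076960.1 did not pass in any comparison. Its CPM was 1.22, 2.80 and 2.93 in the controls, 2.31, 2.17 and 1.43 after defoliation and 1.88, 1.41 and 0.904 with shading. Control replicate 1 lay below all defoliation libraries and below shading replicates 1 and 2, so the groups overlapped. The log2 fold changes were -0.23 ± 0.39 after defoliation and -0.71 ± 0.40 under shading (SE, edgeR adjusted p = 0.675 and 0.205). With 1 library left out they ranged from -0.54 (without control replicate 1) to -0.029 (without control replicate 3) after defoliation and from -1.01 (without control replicate 1) to -0.49 (without shading replicate 3) under shading. The values after defoliation without control replicate 2 or defoliation replicate 3 were -0.068 and -0.046.

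**Figure D3:**
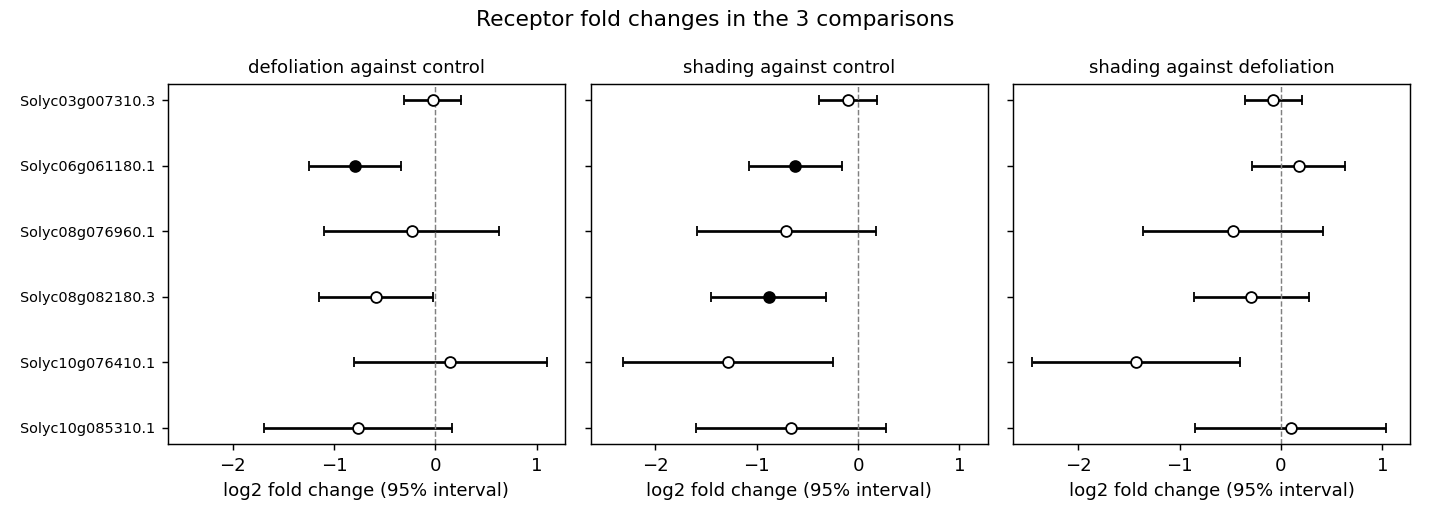
Log2 fold changes of the 6 receptors with 95% intervals in the 3 comparisons; filled points have an edgeR adjusted p below 0.05 and the dashed line is no change. Solyc06g061180.1 is filled in both comparisons with control, Solyc08g082180.3 under shading, and no point is filled for shading against defoliation.

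Read against all genes, the number of receptors called was not high. After defoliation 1 of 6 members was called, lower, where 34.3% of all tested genes were called and 15.4% were called lower. Under shading 2 of 6 were called, both lower, where 30.2% of all genes were called and 14.2% were called lower. That count was 0 without control replicate 1 or 2 and 1 without shading replicate 3, and it was 1 in 5 of the other 6 fits that left out a library. The groups did not overlap for 2 of 6 members after defoliation, against 51.9% of all genes, and for 3 of 6 under shading, against 46.3%.

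The log2 fold change was below 0 for 5 of 6 members after defoliation, against 51.2% of all tested genes, and for 6 of 6 under shading, against 51.5%. With 1 library left out, the sign after defoliation changed in 3 of 9 fits for Solyc03g007310.3 and in 3 of 9 for Solyc10g076410.1. The median over the members was -0.41 after defoliation and -0.69 under shading, while the median over all genes was -0.019 and -0.022. Median sizes regardless of sign were 0.41 for the members and 0.44 for all genes after defoliation, and 0.69 and 0.42 under shading. Solyc06g061180.1 lay above 11.2% of all genes in its log2 fold change after defoliation, and Solyc08g082180.3 above 9.48% under shading. These are descriptions of a short list with no test of the list.

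**Figure D4:**
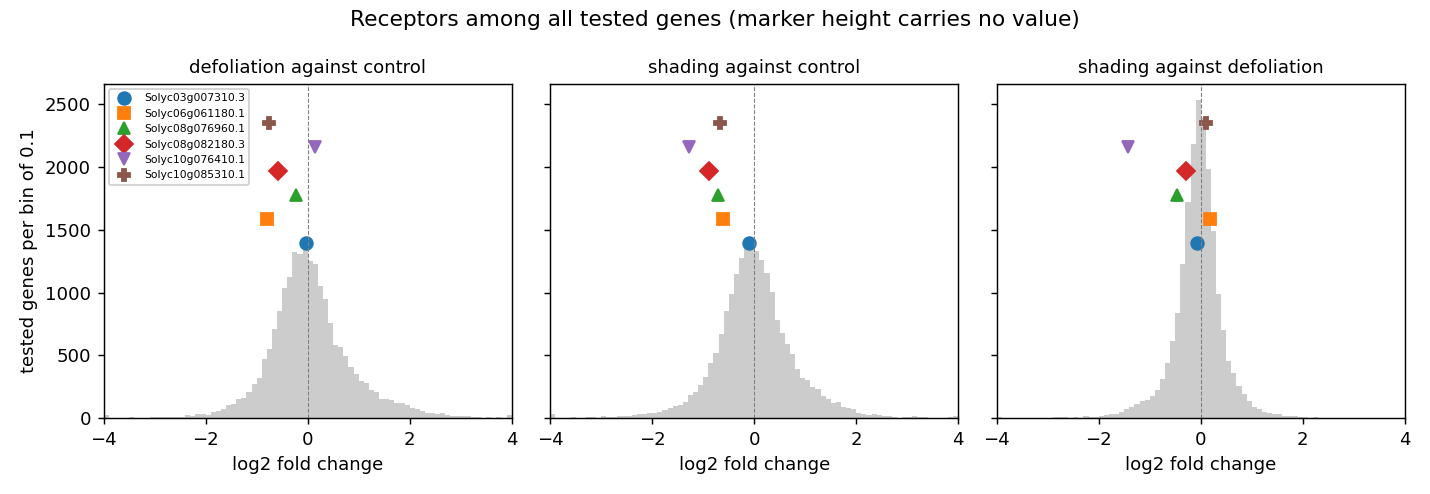
Grey bars count tested genes by log2 fold change in bins of 0.1, with values beyond the axis limits put in the end bins; coloured symbols mark the 6 receptors at heights chosen for legibility. The receptors lie to the left of or close to the centre of the distribution in both comparisons with control, with Solyc10g076410.1 (0.15) alone on the right after defoliation.

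The comparison of shading with defoliation asks whether covering the other leaves leaves a different transcript level from removing them. No receptor was called higher or lower in it by edgeR or by limma-voom, each of which called 0.0146% of all tested genes. DESeq2 also called no receptor, while calling 5.2% of the genes it tested. At an unadjusted edgeR p below 0.05 there was 1 of 6 members, Solyc10g076410.1, against 16.6% of all genes. This gene was also the 1 member whose groups did not overlap, which held for 21.8% of all genes. The intervals allow sizeable differences for the low members, from -1.36 to 0.41 for Solyc08g076960.1 and from -0.85 to 1.04 for Solyc10g085310.1. For Solyc06g061180.1 the direct log2 fold change was 0.17 ± 0.21 (SE, edgeR adjusted p = 0.712, 95% interval -0.29 to 0.63).

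The make-up of the receptor counts differed between libraries. Summed over the 6 members, CPM was 82.2 ± 9.18 for control, 61.4 ± 9.90 for defoliation and 54.6 ± 4.98 for shading (SD, n = 3), with every treated library (48.9 to 67.5 CPM) below every control library (73.0 to 91.3 CPM). Within this sum, Solyc08g082180.3 alone had means of 42.3, 28.2 and 22.9 CPM in the same order. Taken singly, 51.9% of all tested genes had no overlap with control after defoliation and 46.3% had none under shading. Solyc08g082180.3 and Solyc03g007310.3 gave most of the summed counts. Solyc03g007310.3 made up 20.7%, 27.7% and 32.6% of them in the control libraries, 31.4%, 34.8% and 39.9% after defoliation and 36.2%, 37.4% and 38.4% under shading. Its share in every shading library exceeded that in every control library, although its own level did not differ beyond the spread.

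The ratio of Solyc08g082180.3 to Solyc03g007310.3 counts within a library does not depend on library scaling. It was 2.95, 1.84 and 1.23 in the control libraries, 1.53, 1.29 and 1.11 after defoliation and 1.23, 1.22 and 0.904 under shading. The lowest control and the highest shading library were at nearly the same ratio, and the defoliation libraries overlapped the controls. This pair was chosen after its values had been seen, and no test was made of the sum, the shares or the ratio.

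**Figure D5:**
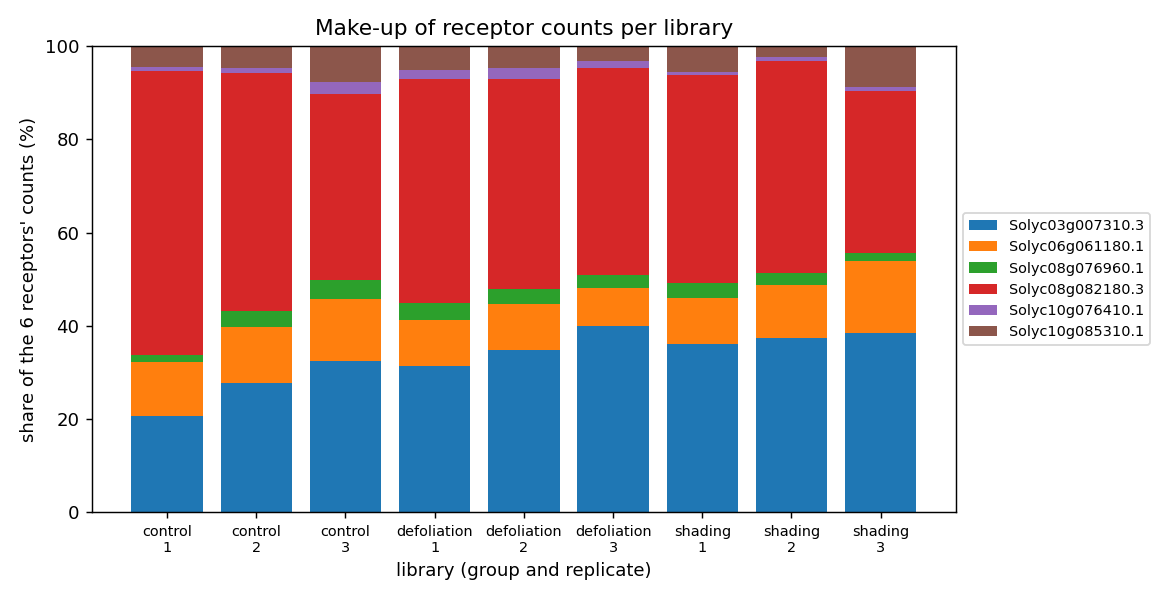
Share of each receptor in the summed counts of all 6, in percent, with 1 bar per library. Solyc08g082180.3 takes 61% in control replicate 1 and 34.7% in shading replicate 3, and the share of Solyc03g007310.3 is 20.7% and 38.4% in the same libraries; shares are not corrected for transcript length, so sizes should be compared for 1 gene across libraries.

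Likeness of pattern was measured as the root-mean-square difference of log2 CPM, centred on each gene's own mean, over the 9 libraries. Among the members the closest pair was Solyc06g061180.1 and Solyc08g082180.3, at 0.382. For Solyc08g082180.3, the member with the highest mean CPM, the nearest other genes were Solyc02g092490.3 at 0.0707 and Solyc08g078300.3 at 0.141, where the median over all tested genes was 0.582. Mean CPM of Solyc02g092490.3 was 6.61 ± 2.03 for control, 4.75 ± 0.89 for defoliation and 3.66 ± 0.96 for shading (SD, n = 3). For Solyc08g078300.3 it was 5.26 ± 1.45, 3.60 ± 0.22 and 3.02 ± 0.95 in the same order. Both genes were picked as the nearest in these same 9 libraries, so their small distances and similar group means follow from the choice.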

How the data were processed

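Messenger RNA of 9 leaf libraries was measured by sequencing. The table that was deposited holds RSEM's expected counts as whole numbers, and no rounding was needed. The submitters' processing notes name Trim Galore, STAR, RSEM and DESeq2, with versions, genome build and annotation not given in the sources used here. Since RSEM divides reads shared by similar genes by estimation, counts of near-identical receptor copies would be uncertain, and the library kit named in the labels' protocols does not mark strand.

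CPM used TMM effective library sizes. The filterByExpr filter by group kept 88.3% of genes and 99.96% of counts. All 9 libraries entered one fit with a coefficient per group, tested with edgeR 4.0.16 in R 4.3.3 (quasi-likelihood F-test, robust estimation), with Benjamini-Hochberg adjustment over all 20480 tested genes and a threshold of 0.05. Standard errors are the absolute log2 fold change over the square root of F, and intervals use the fit's total degrees of freedom. The fit was tested on simulated data. Intervals of single-library CPM are exact Poisson intervals at 95% and, like depth, cover counting error only. Nothing says that replicates of different groups shared a day or tray. The p-values set the difference between groups against the spread between libraries within groups.

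The members, the rule for named genes (all 6 members, and the 2 genes nearest in pattern to the member with the highest mean CPM) and the alternatives were chosen with earlier results of these data known. Other pathway genes and cell type markers were listed by identifier for use only if annotated; none was, so they are not reported. Alternatives were DESeq2 1.42.0, limma-voom (limma 3.58.1), the newer quasi-likelihood method, other scalings and filters, the compared groups alone, a replicate block and leaving out each library.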

Additional observations from a re-analysis of the deposited data

How the results depend on the processing

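Each of the 18 receptor values and the counts of called receptors were recomputed under 9 other settings and with each library left out. With RLE or upper-quartile scaling the shading value of Solyc06g061180.1 was -0.60 or -0.62 and not called, leaving 1 receptor lower under shading in each. With the replicate number as a replicate block, Solyc06g061180.1 was not called under shading (-0.61, edgeR adjusted p = 0.0774), leaving 1 receptor lower, and Solyc08g082180.3 was called after defoliation (-0.56, edgeR adjusted p = 0.0139), making 2. Under shading Solyc08g082180.3 stayed called with the block, at -0.865 (edgeR adjusted p = 0.00397, against 0.027 without the block). Same-numbered libraries of different groups had correlations of their deviations between -0.187 and 0.141, against -0.146 to 0.192 for differently numbered ones. For 1 of 9 libraries the 2 highest correlations were both with same-numbered libraries, so over all genes the number is not taken to pair the libraries. The CPM of Solyc08g082180.3 did fall in the order of the number within each group. Whether the number pairs the libraries for this gene was not tested. The direct value of Solyc10g085310.1 was 0.097 in the main fit, -0.0685 with limma-voom and -0.27 without shading replicate 3. The cause of these shifts was not tested.

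With 1 library left out, between 1 and 2 receptors were lower after defoliation and between 0 and 2 under shading, with 0 left without control replicate 1 or 2. Ranges of the log2 fold change were -0.80 to -0.34 for Solyc08g082180.3 after defoliation, -1.09 to -0.63 for it under shading and -0.72 to -0.52 for Solyc06g061180.1 under shading. Values near 0 changed sign for Solyc03g007310.3 (-0.12 to 0.042) and Solyc10g076410.1 (-0.063 to 0.65) after defoliation, and in the direct comparison for Solyc06g061180.1 (-0.025 to 0.29) and Solyc10g085310.1 (-0.27 to 0.47).

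Counts over all genes moved by over 1.5 times in the direct comparison, from 2 higher and 1 lower to 576 and 438 with DESeq2, 1 and 2 with the compared groups alone, 0 and 0 with the block and 0 lower with the newer method. Leaving out 1 library gave 0 to 3 higher and 0 to 4 lower there. It also gave 2077 genes lower after defoliation without defoliation replicate 3, against 3152, and 1922 lower under shading without control replicate 3, against 2899. For Solyc10g076410.1, counting error was 19.2% on 93 control counts and 32.5% on 32 shading counts. Its coefficient of variation between libraries was 51% in control and 22.6% in shading.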
